A study of Homo sapiens with 5 samples.

Results

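The 8 genes described here, FHIT, WWOX, MACROD2, CSMD1, LRP1B, PTPRD, CNTNAP2 and IMMP2L, are among the longest in the human genome. They were chosen by name, and their members are the ChIP-seq summits that fell inside fixed hg19 spans of 0.900 to 2.31 Mb, 14.1 Mb in all. The spans held 840 of the 209263 summits in the 5 lists. The samples came from HCT116, an established human colorectal cancer cell line. For 48 h the cells were treated with ENO1-IT1 siRNA, which targets a long noncoding transcript, or with a control siRNA. Chromatin was immunoprecipitated with an antibody to H3K27ac, histone H3 acetylated at lysine 27, or to KAT7, a histone acetyltransferase also named HBO1. The groups were ENO1-IT1 siRNA H3K27ac, control siRNA H3K27ac, ENO1-IT1 siRNA KAT7 and control siRNA KAT7, beside 1 input library whose label names no siRNA. Each group was 1 library, so no difference below has a replicate check and no p-value is given. The groups rest on the sample titles, and the lists hold no RNA level by which the knockdown could be checked. Peak names in all 5 lists begin with KO, those titled control siRNA included, so they give no second evidence of the condition.

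Common fragile sites are chromosome regions that break or form gaps when DNA replication is slowed. Many lie inside very long genes that replicate late in S phase and hold few replication origins, and FHIT and WWOX cover the best known of them. KAT7 takes part in the licensing of replication origins through its acetylation of histones, and it is also found at promoters. H3K27ac marks active promoters and enhancers. Neither replication timing nor breakage was measured here, so the words late-replicating and fragile are background and not a finding.

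Of the 115 KAT7 summits in the spans after ENO1-IT1 siRNA and the 698 in control siRNA cells, few had H3K27ac beside them, and H3K27ac itself was scarce, with 15 summits after ENO1-IT1 siRNA and 12 in control siRNA cells. The input list had 0 summits in the spans, where 4.21 would have matched its genome mean, and 0 in the 1 Mb on either side of them. The 0 summits allow a density of up to 0.261 per Mb, against an input mean of 0.298. The median 1 Mb window of the genome also held 0 input summits, so 0 is a usual count and is not read as a shortage. The genome mean of a list is its number of summits on chromosomes 1 to 22 and X per 1 Mb window, over the 2888 windows that held a summit of any list. The 14.1 Mb of the spans equal 0.490% of that length. Intervals are exact 95% Poisson intervals for counts and exact Clopper-Pearson intervals for shares. They cover counting error only, and neighbouring summits are not independent.

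H3K27ac was listed far below the genome mean across the 8 genes in both conditions. Its density was 1.06 summits per Mb (0.594 to 1.75) after ENO1-IT1 siRNA, against a genome mean of 11, a ratio of 0.0964. The control density was 0.849 per Mb (0.439 to 1.48), against 10.2, a ratio of 0.0834. All 8 genes lay below the mean in both lists. Of the 1 Mb windows of the genome, 67.3% lay below it after ENO1-IT1 siRNA and 67.4% in control siRNA cells, since the mean is raised by a minority of dense windows. MACROD2, LRP1B and PTPRD had 0 H3K27ac summits in either condition. At the genome means, MACROD2 would have held 22.6 after ENO1-IT1 siRNA and 20.9 in control siRNA cells, and PTPRD 25.3 and 23.4. Windows of 1 Mb with 0 summits made up 12.6% of the genome after ENO1-IT1 siRNA and 15.2% in control siRNA cells, and these 3 spans are each wider than such a window. IMMP2L had the highest density, 6.67 per Mb after ENO1-IT1 siRNA (2.45 to 14.5) and 4.44 per Mb in control siRNA cells (1.21 to 11.4), the only gene whose intervals reached the genome mean.

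KAT7 showed no such shortage. In the 8 genes together its density was 8.13 summits per Mb (6.72 to 9.76) after ENO1-IT1 siRNA, against a genome mean of 8.44, a ratio of 0.964 (0.796 to 1.16). In control siRNA cells it was 49.4 per Mb (45.8 to 53.2), against 42.1, a ratio of 1.17 (1.09 to 1.26). After ENO1-IT1 siRNA 4 of the 8 genes exceeded the mean, as did 40.0% of 1 Mb windows. In the control list 6 of 8 did, as did 50.1% of windows. The control ratio was 1.15 (0.996 to 1.33) among summits scoring at least 3 and 1.21 (0.980 to 1.48) among those scoring at least 5, with intervals that include 1. The 2 most frequent scores of that list, 2.68 and 1.31, made up 67.6% (64.0 to 71.1%) of its summits in the spans and 64.1% over the genome, and without them the ratio was 1.06 (0.925 to 1.21).

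**Figure D1:**
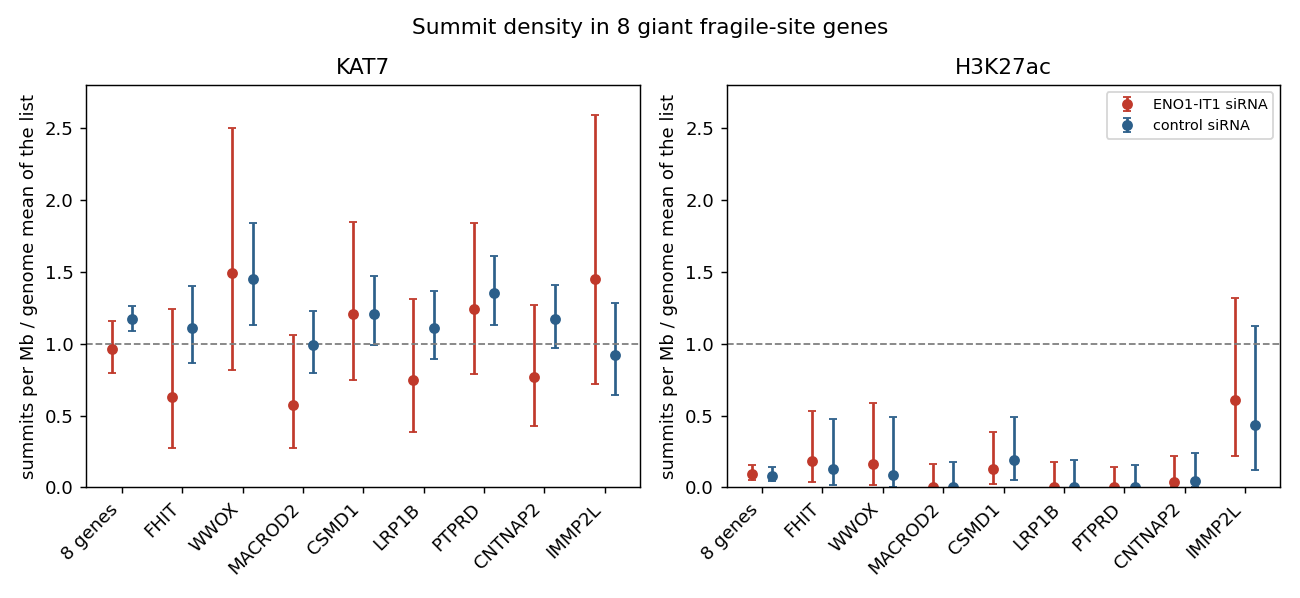
Summits per Mb in the 8 genes together and in each gene, divided by the genome mean of the same list (dashed line at 1), for KAT7 on the left and H3K27ac on the right. Points are single libraries, ENO1-IT1 siRNA in red left of control siRNA in blue, and bars are exact 95% Poisson intervals of the counts. KAT7 values scatter around 1, from 0.576 to 1.49 after ENO1-IT1 siRNA and from 0.924 to 1.45 in control siRNA cells, whereas H3K27ac values lie between 0 and 0.606 after ENO1-IT1 siRNA and between 0 and 0.437 in control siRNA cells.

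Acetylation at the 5′ ends of the genes was examined first, because a long gene is transcribed from there. Orientation was taken from RefSeq promoter records for GRCh38.p14, which matched 6 of the 8 genes. Of these 6, FHIT, WWOX and IMMP2L had an H3K27ac summit within 5 kb of the 5′ end of the span in both conditions, and MACROD2, PTPRD and CNTNAP2 had none in either. FHIT encodes a hydrolase of diadenosine triphosphate that is often lost in carcinomas. Its 5′ summit lay on chromosome 3 at 61237450 with a score of 7.50 after ENO1-IT1 siRNA, 450 bp beyond the span and so not counted in it, and at 61236783 with a score of 9.68 in control siRNA cells. WWOX encodes an oxidoreductase with WW domains. Its summit lay on chromosome 16 at 78133529 (score 1.62) after ENO1-IT1 siRNA and at 78133602 (score 2.69) in control siRNA cells, a weak call in both lists. IMMP2L encodes a subunit of the peptidase of the inner mitochondrial membrane. Its summit lay on chromosome 7 at 111202287 (score 7.16) after ENO1-IT1 siRNA and at 111202100 (score 7.86) in control siRNA cells. No KAT7 summit lay within 500 bp of any of these 5′ summits. In FHIT a KAT7 summit after ENO1-IT1 siRNA (61235633, score 4.22) lay 1150 bp from the control H3K27ac summit. The 5′ ends of MACROD2, PTPRD and CNTNAP2 lay 209972, 1463584 and 592689 bp from the nearest H3K27ac summit after ENO1-IT1 siRNA and 210151, 1463577 and 592689 bp from the nearest in control siRNA cells. For CSMD1 and LRP1B, which had no promoter record, neither end of the span had an H3K27ac summit within 5 kb. The scores are the authors' -log10 of a p or q value for each peak within its own list, so scores of different lists are not on a common scale.

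The sequences before the outermost start of these 6 genes are printed to show what the 5′ ends with and without listed acetylation look like. Each is the 250 bases before the start, 5′ to 3′ on the strand of the gene, in the RefSeq table for GRCh38.p14, a build other than the hg19 of the summits, so their positions cannot be set directly against those of the summits. FHIT is chr3:61251453-61251702 on the minus strand, WWOX chr16:78099404-78099653 on the plus strand and IMMP2L chr7:111562493-111562742 on the minus strand. MACROD2 is chr20:13995266-13995515 on the plus strand, PTPRD chr9:10613003-10613252 on the minus strand and CNTNAP2 chr7:146116551-146116800 on the plus strand. Capitals mark CG dinucleotides. The first 3 had H3K27ac at the 5′ end and the last 3 had none.
FHIT: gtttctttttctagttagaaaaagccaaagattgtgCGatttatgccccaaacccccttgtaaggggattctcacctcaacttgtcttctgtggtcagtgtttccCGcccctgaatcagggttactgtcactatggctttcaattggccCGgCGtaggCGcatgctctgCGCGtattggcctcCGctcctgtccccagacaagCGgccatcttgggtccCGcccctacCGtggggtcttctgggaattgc
WWOX: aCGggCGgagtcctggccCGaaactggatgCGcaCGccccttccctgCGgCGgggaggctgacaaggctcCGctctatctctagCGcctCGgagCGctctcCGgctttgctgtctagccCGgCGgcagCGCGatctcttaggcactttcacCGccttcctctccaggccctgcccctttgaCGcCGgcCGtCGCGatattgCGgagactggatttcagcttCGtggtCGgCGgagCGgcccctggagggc
IMMP2L: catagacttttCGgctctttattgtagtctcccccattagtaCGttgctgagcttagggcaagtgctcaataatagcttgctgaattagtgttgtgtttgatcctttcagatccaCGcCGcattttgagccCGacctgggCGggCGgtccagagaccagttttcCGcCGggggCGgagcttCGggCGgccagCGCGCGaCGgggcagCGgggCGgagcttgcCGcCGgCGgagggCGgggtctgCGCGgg
MACROD2: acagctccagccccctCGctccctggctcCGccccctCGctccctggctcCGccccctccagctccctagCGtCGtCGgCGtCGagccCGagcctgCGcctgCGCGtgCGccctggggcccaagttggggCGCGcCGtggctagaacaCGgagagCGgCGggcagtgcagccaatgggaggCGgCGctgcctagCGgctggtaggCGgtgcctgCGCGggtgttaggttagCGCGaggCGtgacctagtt
PTPRD: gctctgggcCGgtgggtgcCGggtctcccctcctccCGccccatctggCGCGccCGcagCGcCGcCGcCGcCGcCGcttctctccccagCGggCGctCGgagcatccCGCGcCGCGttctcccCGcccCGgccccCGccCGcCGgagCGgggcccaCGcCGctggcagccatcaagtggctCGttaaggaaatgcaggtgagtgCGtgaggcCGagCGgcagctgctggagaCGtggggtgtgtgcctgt
CNTNAP2: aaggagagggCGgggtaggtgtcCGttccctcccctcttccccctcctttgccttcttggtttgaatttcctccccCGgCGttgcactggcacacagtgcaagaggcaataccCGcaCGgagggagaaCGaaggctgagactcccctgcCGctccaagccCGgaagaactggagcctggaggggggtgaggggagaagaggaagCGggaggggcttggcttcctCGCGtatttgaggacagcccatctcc
The 250 bases of FHIT held 11 CG dinucleotides, those of WWOX 27 and those of IMMP2L 24. Those of MACROD2 held 29, those of PTPRD 32 and those of CNTNAP2 12, and the median of the 35116 promoters in the table was 11. CG content thus did not separate the genes with a 5′ H3K27ac summit from those without. The letters GGGCGG, which contain a CG, were found on one strand or the other in 6 of 6, and in 42.6% of all promoters of that length.

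Inside the genes, H3K27ac summits lay mostly where KAT7 was listed in both conditions. When H3K27ac summits of both conditions at most 500 bp apart were merged, the 8 genes held 16 sites, 3 at the 5′ ends and 13 in the interior. The 5′ site of FHIT counts in the spans as control only, because its summit after ENO1-IT1 siRNA fell outside. Of the 13 interior sites, 11 (84.6%, 54.6 to 98.1%) had a KAT7 summit within 500 bp in both KAT7 lists and 2 had none in either. Over the genome 9.43% (9.14 to 9.73%) of 38280 merged sites had KAT7 in both lists. The rest of the thinly acetylated genome was closer to the genes. In the 822 windows of 1 Mb with at most 2 H3K27ac summits in each list, some of which overlap the genes, 53.5% (49.8 to 57.1%) of 733 merged sites had KAT7 in both lists. Over all 16 sites in the genes the share was 68.8% (41.3 to 89.0%), an interval that includes this value.

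CSMD1, a membrane protein with CUB and sushi domains that restrains complement, held 4 of the interior sites, as did IMMP2L. The strongest lay on chromosome 8, where H3K27ac was listed at 3569934 (score 56.7) after ENO1-IT1 siRNA and 3569940 (score 37.6) in control siRNA cells. KAT7 was listed there at 3569943 (score 108.0) after ENO1-IT1 siRNA and 3569926 (score 40.8) in control siRNA cells, so that all 4 lists had a summit within 17 bp. Further CSMD1 sites were listed for H3K27ac near 3783571 and 3965587 in both conditions. The site at 4109355 (score 8.49) was listed for H3K27ac in control siRNA cells only, with the nearest H3K27ac summit after ENO1-IT1 siRNA 143768 bp away, while KAT7 was listed within 4 bp of it in both conditions.

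CNTNAP2 encodes a neurexin-family adhesion protein of neurons. Its only H3K27ac site lay on chromosome 7 at 146405689 in both lists, to the base, with a score of 31.1 after ENO1-IT1 siRNA and 24.2 in control siRNA cells. The KAT7 summit of both conditions was the neighbouring base, 146405688, with scores of 48.1 after ENO1-IT1 siRNA and 35.7 in control siRNA cells. It was the highest-scored KAT7 summit of the gene in both lists.

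At 4 interior sites H3K27ac was listed after ENO1-IT1 siRNA only, and all 4 had KAT7 in both conditions. The 2 in FHIT lay on chromosome 3 at 59994913 (score 11.2) and 60109784 (score 4.93), with the nearest control H3K27ac summit 190784 and 305655 bp away. The one in WWOX lay on chromosome 16 at 78920973 (score 8.74), and the one in IMMP2L on chromosome 7 at 110731938 (score 17.5). KAT7 summits lay 1 to 24 bp from these 4 positions after ENO1-IT1 siRNA and 4 to 32 bp from them in control siRNA cells. Over the genome 1.90% of merged sites had this pattern of H3K27ac after ENO1-IT1 siRNA only with KAT7 in both, and in the thinly acetylated windows 13.0% (10.6 to 15.6%). The share in the genes was 25.0% (7.27 to 52.4%), an interval that includes the value of those windows. The scores of the 4 summits lay on both sides of 8.02, the median of that H3K27ac list. With 1 library each, a summit absent from control siRNA cells and one below the authors' threshold cannot be told apart.

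**Figure D2:**
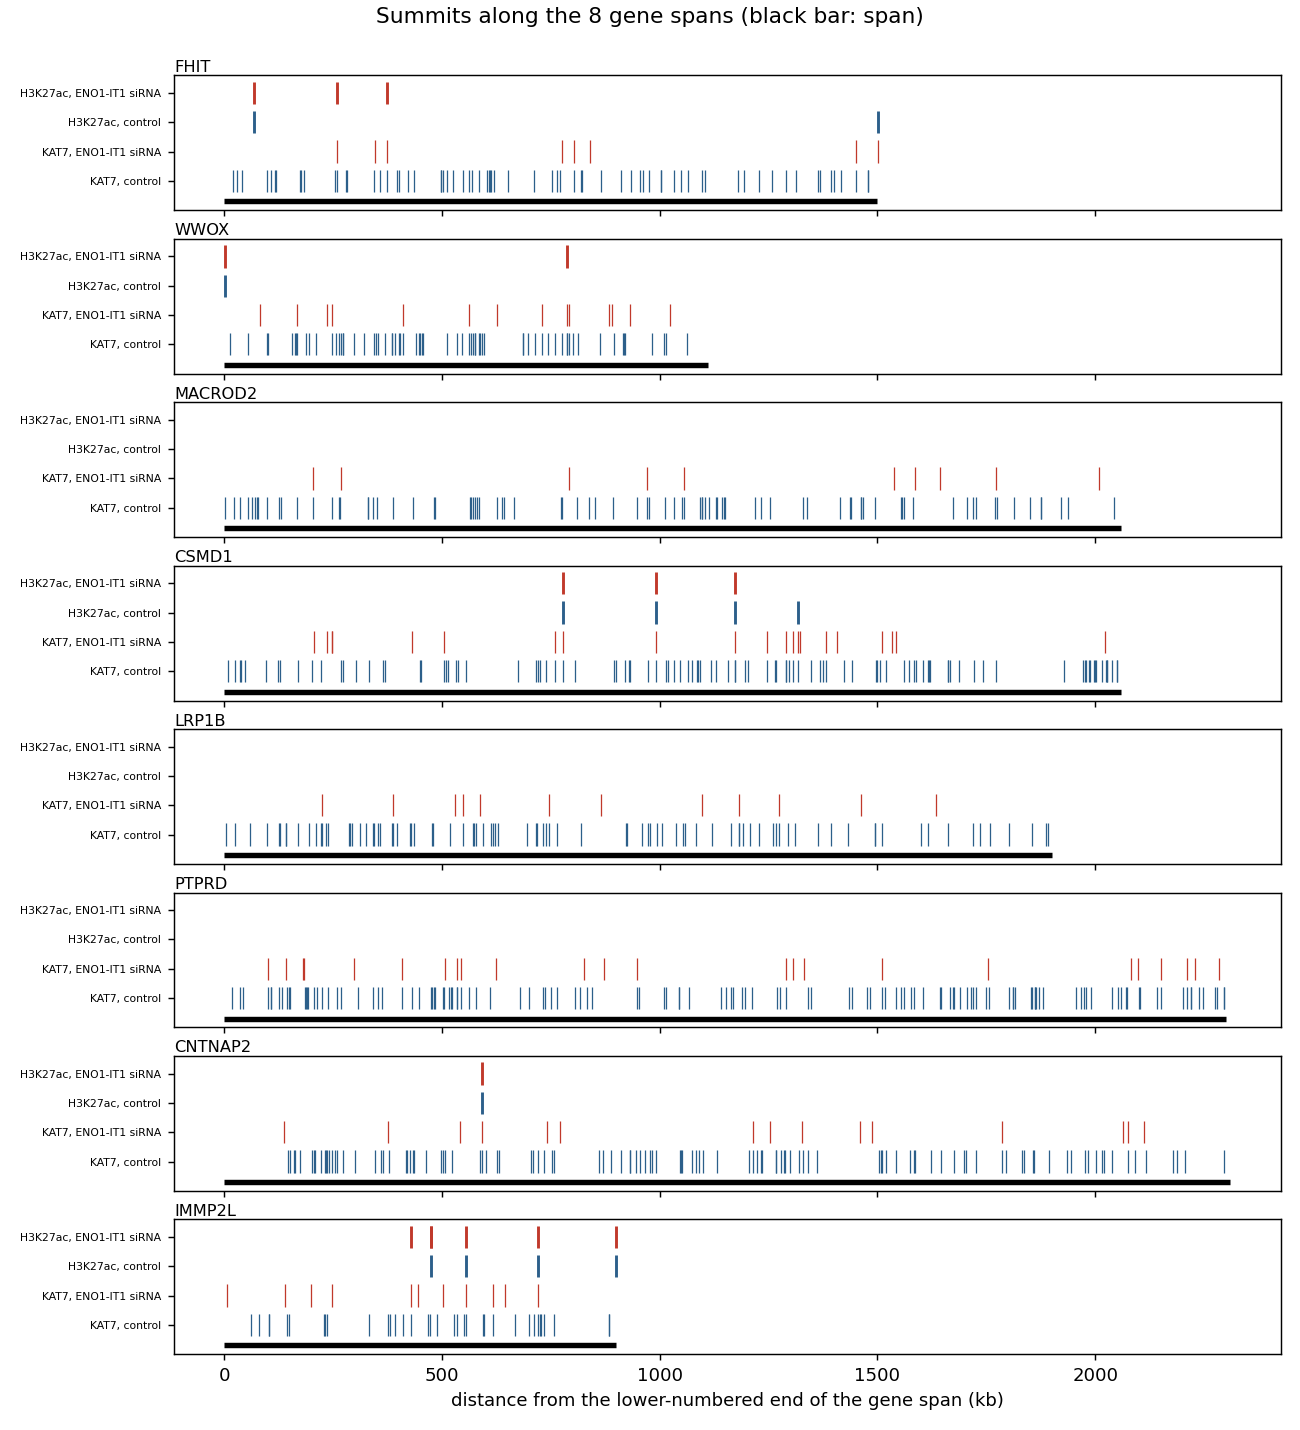
Position of every summit in the 8 gene spans, as the distance in kb from the lower-numbered end of the span (black bar), with 1 row per list and ENO1-IT1 siRNA (red) above control siRNA (blue) for each antibody. KAT7 ticks in control siRNA cells are spread along most of every gene. The 4 H3K27ac positions listed after ENO1-IT1 siRNA only in FHIT, WWOX and IMMP2L stand above KAT7 ticks in both conditions.

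The KAT7 counts of the genes varied around the genome mean without a common direction. WWOX had the highest density in both lists, 12.6 summits per Mb (14 summits) after ENO1-IT1 siRNA and 61.0 per Mb (68 summits) in control siRNA cells. The control value was 1.45 times the genome mean (1.13 to 1.84) and exceeded that of 96.8% of 1 Mb windows. Among control summits scoring at least 5, WWOX held 14, which is 2.27 times the genome mean (1.24 to 3.80). PTPRD, a receptor tyrosine phosphatase, followed in control siRNA cells, with 10.4 per Mb (24 summits) after ENO1-IT1 siRNA and 57.0 per Mb (131 summits) in control siRNA cells. Its control density was 1.35 times the mean (1.13 to 1.61). These were the only 2 genes whose control interval excluded the mean. CSMD1 had 10.2 per Mb (21 summits) after ENO1-IT1 siRNA and 51.0 (105 summits) in control siRNA cells. CNTNAP2 had 6.51 (15 summits) after ENO1-IT1 siRNA and 49.5 (114 summits) in control siRNA cells.

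LRP1B, an endocytic receptor of the LDL receptor family, had 6.32 KAT7 summits per Mb (12 summits) after ENO1-IT1 siRNA and 46.8 (89 summits) in control siRNA cells. FHIT had 5.33 (8 summits) after ENO1-IT1 siRNA and 46.6 (70 summits) in control siRNA cells. MACROD2, an enzyme that removes ADP-ribose from proteins, had the lowest density after ENO1-IT1 siRNA, 4.86 per Mb (10 summits), and 41.8 (86 summits) in control siRNA cells. IMMP2L had the lowest in control siRNA cells, 38.9 per Mb (35 summits), and 12.2 (11 summits) after ENO1-IT1 siRNA, second to WWOX. After ENO1-IT1 siRNA the interval of each of the 8 genes included the genome mean of 8.44. Within either list the intervals of all 8 genes overlapped. Overlap alone does not show that a pair of genes is alike. No pair of genes was compared, so the order is given only as listed.

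The number of KAT7 summits after ENO1-IT1 siRNA relative to control siRNA was 0.165 (0.134 to 0.201) in the 8 genes, 115 against 698, and 0.200 over the genome. The upper bound in the genes just includes the genome value. The ratio lay under the genome value in 6 of 8 genes, as it did in 57.4% of windows with a control summit, and CSMD1, counted among the 6, equalled it to 3 digits. It ran from 0.114 in FHIT (8 summits after ENO1-IT1 siRNA against 70 in control siRNA cells) to 0.314 in IMMP2L (11 against 35), and the interval of every gene included 0.200. A score minimum applied to both lists need not select the same strength of binding, so counts above one describe the lists and not a change in KAT7. Among summits scoring at least 10, the genes held 49 after ENO1-IT1 siRNA and 17 in control siRNA cells, a ratio of 2.88 (1.63 to 5.34), against 2.73 over the genome. H3K27ac had 15 summits after ENO1-IT1 siRNA and 12 in control siRNA cells, a ratio of 1.25 (0.546 to 2.92), with 1.08 over the genome. In CSMD1 (3 summits after ENO1-IT1 siRNA against 4 in control siRNA cells) and CNTNAP2 (1 against 1) it lay under the genome value, as in 52.7% of windows with a control summit, and in FHIT (3 against 2), WWOX (2 against 1) and IMMP2L (6 against 4) it lay above. Neither antibody's ratio in the genes could be told apart from the genome's by counting error.

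Scores of KAT7 summits in the genes were like those of the genome in both lists. The median score was 7.67 in the genes and 7.67 over the genome after ENO1-IT1 siRNA, and 2.68 in both in control siRNA cells. Of the summits after ENO1-IT1 siRNA, 42.6% (33.4 to 52.2%) in the genes scored at least 10, against 37.4% over the genome. Of those in control siRNA cells, 2.44% (1.43 to 3.87%) did in the genes, against 2.75% over the genome. At a minimum of 5 the share after ENO1-IT1 siRNA was 91.3% (84.6 to 95.8%) in the genes, above the 80.8% of the genome. In control siRNA cells it was 13.6% (11.2 to 16.4%) in the genes and 13.2% over the genome.

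**Figure D3:**
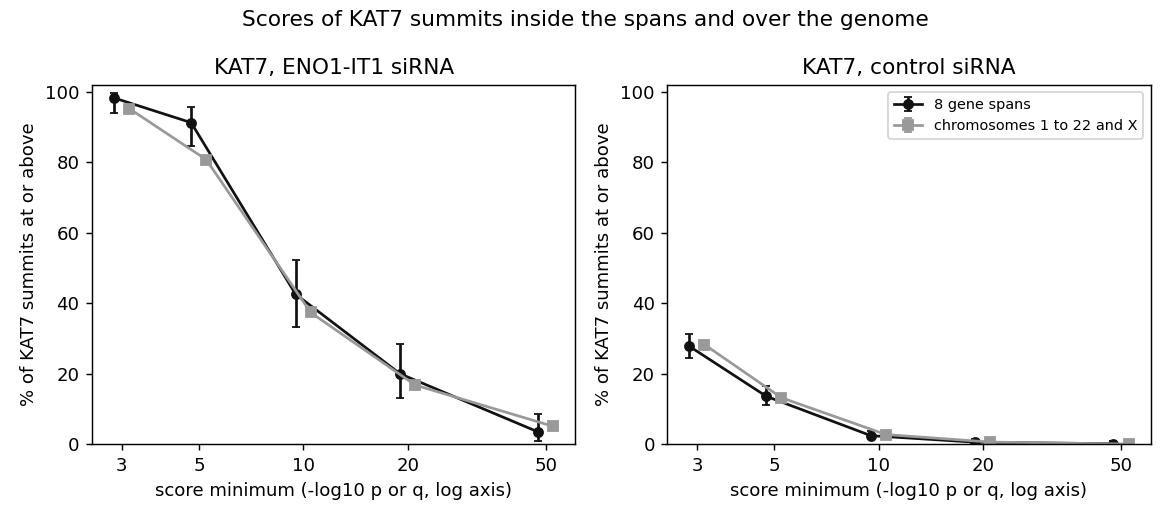
Share of KAT7 summits at or above a score minimum (log axis) in the 8 gene spans (black circles) and on chromosomes 1 to 22 and X (grey squares), after ENO1-IT1 siRNA on the left and in control siRNA cells on the right. Markers of each pair are drawn slightly left and right of their minimum, bars are exact Clopper-Pearson 95% intervals, and the curves lie together except at a minimum of 5 after ENO1-IT1 siRNA, with 91.3% in the genes and 80.8% over the genome.

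Strong KAT7 positions inside the genes fell into those with and without acetylation. Of the 49 KAT7 summits scoring at least 10 after ENO1-IT1 siRNA, 11 (22.4%, 11.8 to 36.6%) lay within 500 bp of both a control KAT7 summit and an H3K27ac summit of either condition, against 29.3% over the genome. Another 11 had a control KAT7 summit without H3K27ac, against 18.9% over the genome, and 27 (55.1%, 40.2 to 69.3%) had neither, against 44.1% over the genome. The highest-scored summit after ENO1-IT1 siRNA lay beside H3K27ac in FHIT (59994926, score 45.5), WWOX (78920997, score 53.0), CSMD1, CNTNAP2 and IMMP2L (110857155, score 51.0). In control siRNA cells this held only for CNTNAP2 and IMMP2L (110857159, score 14.4). The highest-scored control KAT7 summits of FHIT and CSMD1 lay 123382 and 51888 bp from the nearest H3K27ac summit. The 3 tied in WWOX (score 11.8) lay at least 28067 bp away. In the genes with 0 H3K27ac summits, the highest-scored summit after ENO1-IT1 siRNA lay on chromosome 20 at 14244646 in MACROD2, chromosome 2 at 141854234 in LRP1B and chromosome 9 at 9186637 in PTPRD. All 3 had the same score, 35.9, one shared by 83 summits of that list, and a control KAT7 summit lay 2109, 46330 and 29314 bp away. WWOX also held a KAT7 position of both conditions away from acetylation, at 78695979 (score 38.3), 1 bp from a control KAT7 summit and 224994 bp from the nearest H3K27ac summit.

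In control siRNA cells 13 of the 17 KAT7 summits scoring at least 10 (76.5%, 50.1 to 93.2%) had neither H3K27ac nor a KAT7 summit after ENO1-IT1 siRNA nearby, against 73.6% over the genome. The strongest of these was also the highest-scored control KAT7 summit in the 8 genes. This CSMD1 summit, at 3518046 on chromosome 8, scored 65.5 and was 34586 bp from any KAT7 summit after ENO1-IT1 siRNA. The next lay in FHIT on chromosome 3 at 60233166 (score 27.4), 123393 bp from such a summit. Of all KAT7 summits in the genes, 36.5% (27.7 to 46.0%) of those after ENO1-IT1 siRNA had a control KAT7 summit within 500 bp, and 6.16% (4.49 to 8.21%) of those in control siRNA cells had one after ENO1-IT1 siRNA. Over the genome the shares were 32.2% and 6.61%, inside both intervals.

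KAT7 summits beside H3K27ac were rarer in the genes than over the genome. After ENO1-IT1 siRNA 10 of 115 (8.70%, 4.25 to 15.4%) had H3K27ac of the same condition within 500 bp, against 19.0% over the genome. Of the 698 in control siRNA cells 7 (0.404 to 2.06%) did, against 3.67%. In the thinly acetylated windows the shares were 7.45% after ENO1-IT1 siRNA and 0.918% in control siRNA cells, inside both intervals. With KAT7 summits beside H3K27ac of either condition left out everywhere, the genes held 1.12 times the genome density after ENO1-IT1 siRNA (104 summits) and 1.21 times in control siRNA cells (687 summits). No interval is given for these 2 ratios, so neither is read as an excess.

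The thinly acetylated windows, 28.5% of all windows, served as a nearer comparison for density as well. They differed from the genes in input, with a mean of 0.607 summits, 2.04 times the genome mean, against 0 in the genes. Some held almost no KAT7, such as a chromosome 7 window with 0 KAT7 summits in either list and 4 input summits. Such windows lower the KAT7 means, and ratios without them were not computed. Mean KAT7 density in the thinly acetylated windows was 6.54 per Mb after ENO1-IT1 siRNA and 43.7 in control siRNA cells. The genes had 1.24 times (1.03 to 1.49) the first and 1.13 times the second. Their H3K27ac means, 0.782 per Mb after ENO1-IT1 siRNA and 0.619 in control siRNA cells, were below those of the genes, at 1.36 (0.759 to 2.24) and 1.37 (0.708 to 2.39) in ratio. The ratio of KAT7 summits after ENO1-IT1 siRNA to control siRNA was 0.149 in these windows, 0.222 in the other windows and 0.165 in the genes. The genes were not nearer to these windows in every measure. Of the KAT7 summits in these windows, 28.3% after ENO1-IT1 siRNA had a control summit within 500 bp, and 4.35% in control siRNA cells had one after ENO1-IT1 siRNA. Both shares lie below those of the genes (36.5% and 6.16%), the second outside the interval of the genes, which were nearer to the genome in both. KAT7 density after ENO1-IT1 siRNA was also nearer to the genome mean. The 3 windows outside the genes with the most similar densities of the 4 immunoprecipitated lists lay at 194000001-195000000 on chromosome 1, 55000001-56000000 on chromosome 4 and 24000001-25000000 on chromosome 12. Each had 1 H3K27ac summit in both lists and 8 KAT7 summits after ENO1-IT1 siRNA, with 48, 48 and 45 KAT7 summits in control siRNA cells.

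**Figure D4:**
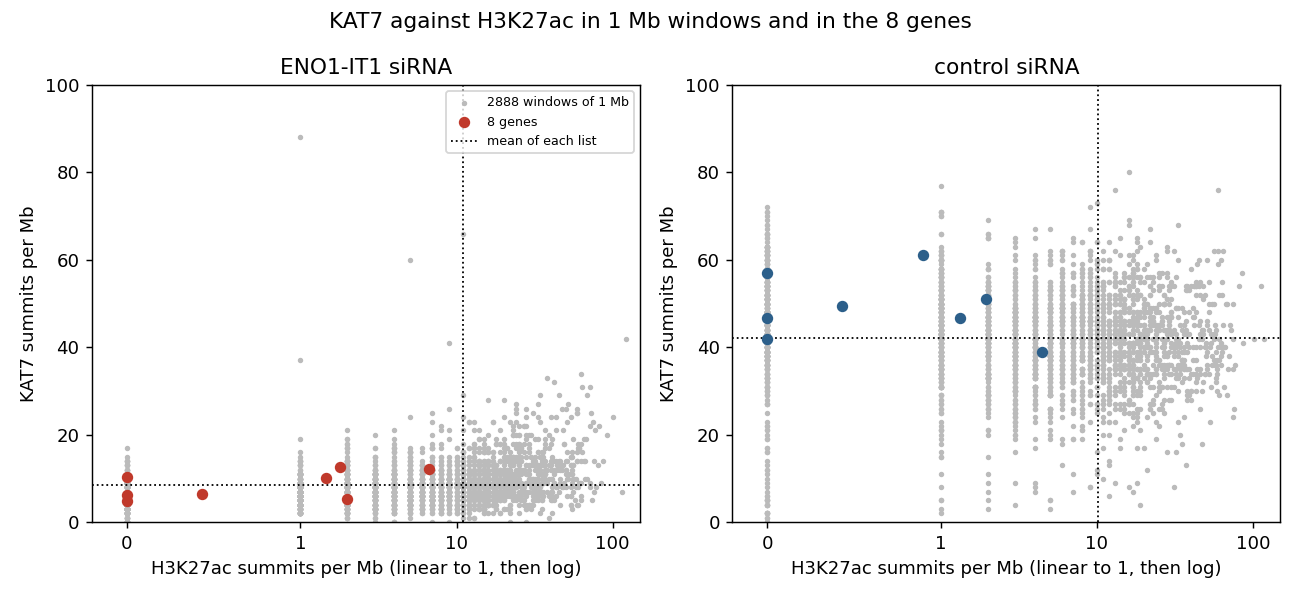
KAT7 against H3K27ac summits per Mb in the 2888 windows of 1 Mb (grey) and in the 8 genes (coloured), after ENO1-IT1 siRNA on the left and in control siRNA cells on the right, with the mean of each list dotted. The horizontal axis is linear to 1 and logarithmic beyond. The genes lie left of the H3K27ac mean and on both sides of the KAT7 mean.

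The surroundings of the genes were also poor in H3K27ac, though less so. In the 1 Mb on either side, H3K27ac density was 3.38 per Mb after ENO1-IT1 siRNA and 2.88 in control siRNA cells, so that the genes had 0.314 (0.176 to 0.519) and 0.295 (0.153 to 0.516) times the density of their flanks. CNTNAP2 had the most uneven flanks, with 18 and 19 H3K27ac summits in the Mb beyond its upper end after ENO1-IT1 siRNA and in control siRNA cells. IMMP2L was denser than its flanks in both conditions, with 6 and 4 summits in the gene against 4 and 2 in both flanks together, after ENO1-IT1 siRNA and in control siRNA cells. CSMD1 was denser than its flanks after ENO1-IT1 siRNA, at 1.46 against 1.0 per Mb, but not in control siRNA cells, at 1.94 against 2.0. KAT7 density in the flanks was 8.0 per Mb after ENO1-IT1 siRNA and 41.3 in control siRNA cells.

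With the genes pooled, KAT7 was listed in every part of their length. In the 6 genes with a known orientation, 5 equal parts from the 5′ to the 3′ end held 15, 13, 17, 21 and 16 KAT7 summits after ENO1-IT1 siRNA. The same parts held 109, 105, 112, 91 and 87 in control siRNA cells, so that no part of the pooled genes lacked a listed KAT7 summit. This does not hold for each gene. The second part of FHIT held 0 KAT7 summits after ENO1-IT1 siRNA. In that list FHIT had none between 839.18 and 1449.57 kb from the lower-numbered end of its span. The first KAT7 summits of CNTNAP2 lay 138.24 kb (ENO1-IT1 siRNA) and 145.15 kb (control siRNA) from its 5′ end. Gaps were measured between neighbouring summits inside a span, over the 4 immunoprecipitated lists together. The dense control KAT7 list thus fills stretches that are empty in the other lists. The longest gap was 156.8 kb, in CSMD1 from 4565442 to 4722214, and 185 gaps over the genome were at least as long. In IMMP2L it was 125.7 kb, close to the 5′ end, from 111060183 to 111185852, with 435 such gaps over the genome, and in MACROD2 it was 107.1 kb, from 14641171 to 14748295. In the other 5 genes the longest gap ran from 57.9 kb in WWOX to 98.4 kb in CNTNAP2. Stretches between a span end and the nearest summit inside were not counted as gaps. In CNTNAP2 the first summit of any of the 4 lists lay 138.24 kb from the 5′ end.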

How the data were processed

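ChIP-seq summits were analysed from 5 libraries of HCT116 cells, with H3K27ac and KAT7 immunoprecipitated after ENO1-IT1 siRNA and after control siRNA, and input. Per the submitters' processing notes, hg19, Bowtie and MACS2 were used. Neither versions nor options nor the control used in peak calling are given in the sources used here. Each deposited list gives 1 bp summits with a score that the authors deposited as -log10 of a p or q value (lowest 1.31 in both KAT7 lists). Such scores grow with depth, and the depth of these libraries is unknown, so a score minimum need not select the same strength of binding in different lists.

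Summits inside the 8 spans were counted in Python (3.11.15) using pandas (2.3.3) and numpy (2.4.6). Intervals came from SciPy (1.17.1) and figures from matplotlib (3.10.9). Positions are hg19 and count from 1. Shared meant at most 500 bp apart. The counting code was tested on simulated lists. Named summits were, for each gene, the highest-scored KAT7 summit after ENO1-IT1 siRNA and every H3K27ac summit within 5 kb of a 5′ end. The highest-scored summits of the other lists are named for some genes only. Further H3K27ac sites and strong KAT7 summits were picked after their values were seen. The genes, lists and alternatives were chosen with earlier results of these data known, and the windows with at most 2 H3K27ac summits, the removal of the most frequent scores and the removal of KAT7 beside H3K27ac after these values were seen. Further long fragile-site genes were not analysed here, because no hg19 annotation was used.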

Additional observations from a re-analysis of the deposited data

How the results depend on the processing

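With each gene left out in turn, the pooled ratio to the genome mean ran from 0.0618 to 0.115 for H3K27ac after ENO1-IT1 siRNA, 0.0594 to 0.0996 for control H3K27ac, 0.911 to 1.03 for KAT7 after ENO1-IT1 siRNA and 1.14 to 1.20 for control KAT7. Against the 1 Mb on either side, the H3K27ac ratios were 0.314 after ENO1-IT1 siRNA and 0.295 in control siRNA cells. Against windows with at most 2 H3K27ac summits, they turned to 1.36 and 1.37, by construction of those windows, and the KAT7 ratio after ENO1-IT1 siRNA was 1.24. The same turn was seen for FHIT (2.55 and 2.15), WWOX (2.30 and 1.45), CSMD1 (1.86 and 3.14) and IMMP2L (8.52 and 7.18), after ENO1-IT1 siRNA and in control siRNA cells. Against their flanks it was seen for IMMP2L (3.33 and 4.44) and, after ENO1-IT1 siRNA, for CSMD1 (1.46). The control KAT7 ratio was 1.15, 1.21, 1.04 and 1.10 at scores of at least 3, 5, 10 and 20, where 194, 95, 17 and 4 summits remained, 1.06 without the 2 most frequent scores and 1.11 with lists of equal length. The number of genes above the control KAT7 mean, 6 as reported, ran from 3 (score of at least 20, and lists of equal length) to 7. Of the 2 genes whose interval lay above the mean, WWOX was below it at a score of at least 20 (0). PTPRD was below it at 10 (0.376, 1 summit), at 20 (0) and with lists of equal length (0.979). The genome density was 1.16 per Mb at 10 and 0.258 per Mb at 20. Counts this small cannot show a change of direction, and the number of genes above the mean at 20 rests on the same 4 summits. With lists of equal length CSMD1 (0.518), CNTNAP2 (0.719) and LRP1B (0.997) were also below the mean and MACROD2 (1.15) was above it.

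The ratio of KAT7 summits after ENO1-IT1 siRNA to control siRNA in the genes was 0.582, 1.11, 2.88 and 5.75 at scores of at least 3, 5, 10 and 20, and 0.509 without the most frequent control scores. The genome moved the same way, with 23227 summits after ENO1-IT1 siRNA against 34398 in control siRNA cells at 3, and 4101 against 745 at 20. This rise was thus not particular to the genes. At minimums of 3, 5 and 10 the share of KAT7 summits found in the other condition was 14.2%, 10.5% and 8.16% after ENO1-IT1 siRNA and 8.25%, 11.6% and 23.5% in control siRNA cells. The share of control KAT7 with H3K27ac was then 2.06%, 4.21% and 11.8%. The genome shares at these minimums are not set beside them here, so the shifts are not read as particular to the genes. The cause of these shifts was not tested. Of 139 pooled values under alternatives, 118 stayed within the 95% counting interval of the value reported. No paired analysis was possible because each group was 1 library. Unknown depth and 12 to 15 H3K27ac summits limit what can be told apart.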
